A study of Homo sapiens with 6 samples.

Results

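Genes grouped as androgen-repressed, among them sucrase-isomaltase (SI), were followed in VCaP prostate cancer cells after SOX9 knockdown. Of 10 genes in the group, SI, OPRK1, MAOA, CAMK2N1, SESN3, LIFR, TMTC2 and PEG3 had a probe set annotated to that symbol alone, of 19775 such genes, and together they held 25 of the 54675 probe sets in the table. PMP22 and ST7 had none of their own and were not analysed here. VCaP is an established line with the TMPRSS2/ERG gene fusion, grown in DMEM with 10% fetal bovine serum. Cells received SOX9 siRNA A, SOX9 siRNA B or a non-target control siRNA, and RNA was taken after 72 h. Each of the 3 groups held 2 arrays, described as biological duplicates. All groups shared the fusion, the medium and a transfection, and all results concern 1 cell line. No group was given or deprived of androgen, so the group's name comes from outside these data and was not tested here.

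Androgens are steroid hormones that sustain the prostate epithelium and set the transcription of many of its genes. Alongside the genes that androgen activates, such as KLK3, other genes are lower in the presence of androgen and rise when the hormone is withdrawn. SOX9 is a transcription factor of the SOX family, which binds DNA through an HMG box, and it is expressed in prostate epithelial progenitors and in many prostate tumours.

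Signals are MAS5 intensities on a linear scale. The 2%-trimmed mean signal was 164 and 159 under siRNA A, 143 and 189 under siRNA B and 156 and 175 under control, so the arrays did not share a common trimmed mean and siRNA B replicate 2 was the brightest. SOX9 itself, the targeted gene, was lower on each of the 4 SOX9 siRNA arrays than on either control array at both of its probe sets. At probe set 202936_s_at the signals were 861 and 586 under siRNA A, 570 and 293 under siRNA B and 1558 and 1270 under control. The log2 fold change of both siRNAs against control was -1.36 (SE 0.29, limma adjusted p = 0.328, and 3.25e-06 with the replicate number as a block). All 8 VCaP and prostate luminal markers with a probe set passed the filter on low signals, with signals of 569 or more on every array. Enterocyte markers were dim, with 0 of 5 above the filter. Of 5 fibroblast markers only COL1A1 passed, and the summed fibroblast signal was 127 and 55.0 under siRNA A, 264 and 255 under siRNA B and 164 and 133 under control. Whether that sum bears on any result was not tested. In bulk RNA, fewer cells of a type and less RNA per cell cannot be told apart, and having 2 arrays a group limits how precise any value is.

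SI rose under siRNA B and was the 1 member that passed the test. SI is the brush-border enzyme of the small intestine that splits sucrose and the branched products of starch. Its probe set 206664_at gave signals of 425.3 and 848.8 under siRNA A, 1379 and 3218 under siRNA B, and 272.6 and 425.6 under control. Both siRNA B arrays were above every siRNA A and control array, whereas siRNA A replicate 1 and control replicate 2 were nearly equal. The means were 637 ± 299 under siRNA A, 2299 ± 1300 under siRNA B and 349 ± 108 under control (SD, n = 2 each). In limma on log2(signal + 16), over 27307 probe sets with Benjamini-Hochberg adjustment, siRNA B against control gave a log2 fold change of 2.57 (SE 0.40, adjusted p = 0.0357), a 5.95-fold higher level. The change for siRNA A against control was 0.79 (SE 0.40, limma adjusted p = 0.9996) and did not pass. Both siRNAs together against control gave 1.68 (SE 0.35, limma adjusted p = 0.306).

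The 2 siRNAs against each other differed for SI by -1.78 on the log2 scale (A minus B, SE 0.40), which did not pass (limma adjusted p = 0.203). The 2 comparisons against control share the control arrays. The replicate numbers were taken to pair the arrays, and replicate 2 exceeded replicate 1 for SI by 0.97 under siRNA A, by 1.21 under siRNA B and by 0.61 under control on the log2 scale. With the replicate number as a block, limma's adjusted p for SI was 1.74e-17 for siRNA B against control, 1.16e-09 for both siRNAs, 7.61e-08 for siRNA A against siRNA B and 0.155 for siRNA A against control. The blocked fit took its spread from the trend across all probe sets alone, so these p-values can be too small. The fit without the block drew partly on that trend too. The spread it used for SI was below SI's own, so its p-values can also be too small. The call for siRNA B was lost without siRNA B replicate 2, at 1.97 (limma adjusted p = 0.240), and without control replicate 1, at 2.27 (limma adjusted p = 0.0910). After scaling to a common trimmed mean the change was 2.58, with limma adjusted p = 0.244 and 0.00169 with the block as well. On that scale all 4 SOX9 siRNA arrays were above both control arrays, with SI signals of 426 and 876 for siRNA A, 1590 and 2799 for siRNA B and 286 and 401 for control.

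**Figure D1:**
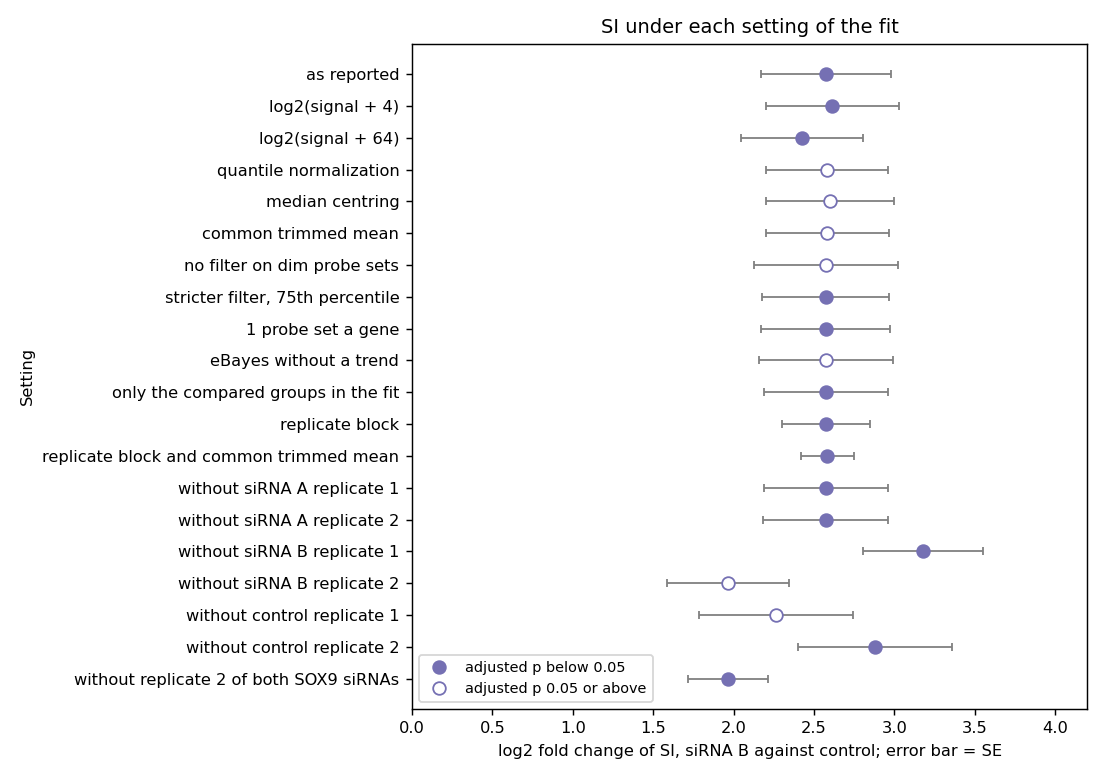
The log2 fold change of SI for siRNA B against control, on the x axis, under the reported fit and each alternative setting, with bars of 1 SE. All values are positive, from 1.97 to 3.18, and filled points mark settings in which limma's adjusted p was below 0.05.

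The window of the SI start site is shown because SI was the member that passed. It covers 250 bases before and 50 after the start as RefSeq annotates it on GRCh38.p14, at chr3:165078447-165078746 on the minus strand. Capitals mark matches, on either strand, to ACAAT and ACAAAG (SOX cores), AGAACA (a steroid hormone response half-site) and TTTAT (a core bound by the intestinal CDX factors, added after values were seen). The window of SESN3, whose 6 tested probe sets all had positive log2 fold changes for both siRNAs together, is given beside it, at chr11:95232426-95232725 on the minus strand.
SI: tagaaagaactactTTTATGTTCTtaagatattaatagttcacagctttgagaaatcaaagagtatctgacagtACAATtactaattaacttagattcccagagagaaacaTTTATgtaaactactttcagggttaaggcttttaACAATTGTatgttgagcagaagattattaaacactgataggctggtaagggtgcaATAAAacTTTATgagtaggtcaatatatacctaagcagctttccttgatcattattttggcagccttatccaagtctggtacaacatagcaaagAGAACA
SESN3: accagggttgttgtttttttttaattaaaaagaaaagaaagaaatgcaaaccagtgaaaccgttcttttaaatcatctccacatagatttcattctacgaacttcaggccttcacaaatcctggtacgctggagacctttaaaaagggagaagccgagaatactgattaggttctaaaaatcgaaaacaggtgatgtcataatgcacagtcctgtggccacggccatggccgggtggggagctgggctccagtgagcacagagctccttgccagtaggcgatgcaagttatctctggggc
The SI window held ACAAT 3 times, of which 2 overlap on opposite strands, AGAACA 2 times and TTTAT 4 times, and no ACAAAG. Of the TTTAT matches 1 shares a base with an AGAACA match. The SESN3 window held none of the 4, and neither did those of MAOA and TMTC2. Other members' windows held matches too. At LIFR, chr5:38595356-38595655 held ACAAT 3 times and TTTAT 1 time, and chr5:38557418-38557717 held ACAAT and AGAACA 1 time each and TTTAT 3 times, while its remaining window had none. Windows of PMP22 and ST7 also held matches, so they are not particular to SI. Of 35116 RefSeq promoter windows, 27.4% held ACAAT, 16.1% ACAAAG, 14.8% AGAACA and 34.9% TTTAT on either strand, so such matches are common. The GC content was 32.7% for SI and 45.0% for SESN3. A match is a description of letters and not of binding.

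Across the members, 0 of the 23 tested probe sets passed for both siRNAs against control, against 0.00366% of all probe sets tested (1 of 27307). At an unadjusted limma p under 0.05 there were 2, SI and the MAOA probe set 212741_at, against 6.90% of all. For siRNA A 0 of 23 passed, against 0.00732% of all, with 1 at an unadjusted limma p under 0.05, where 3.86% of all lay. For siRNA B 1 of 23 passed and was higher, against 0.0623% of all probe sets called, 0.0293% higher and 0.0330% lower. At an unadjusted limma p under 0.05 there were 2, against 10.3% of all. For siRNA A against siRNA B 0 passed, against 0.0476% of all, with SI alone at an unadjusted limma p under 0.05, where 7.48% of all lay. With the replicate block 1 member passed in each comparison except siRNA A against control, and it was SI. The blocked shares of all probe sets were 3.01% for both siRNAs, 1.30% for siRNA A, 5.60% for siRNA B and 2.60% for siRNA A against siRNA B. The member median log2 fold change over probe sets was 0.14 for both siRNAs, against -0.03 over all tested probe sets. With 1 probe set a gene it was -0.02 over the 8 member genes, against -0.04 over all genes tested. Of these 8 genes 4 were positive and 4 negative, so the members as genes showed no upward shift.

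The 22 tested probe sets without SI spanned a narrow range. Their log2 fold changes ran from -0.59 to 0.62 under siRNA A, from -0.64 to 0.44 under siRNA B and from -0.61 to 0.45 for both siRNAs. The lowest limma adjusted p for both siRNAs was 0.692, and 0.178 with the block. As deposited, 3 of 23 member probe sets had all 4 SOX9 siRNA arrays above both control arrays, against 4.75% of all tested probe sets. All 3 belonged to SESN3. A further 6 (26.1%) had all 4 below both controls, against 10.9% of all. These were both TMTC2 probe sets, CAMK2N1 218309_at and 229163_at, MAOA 212741_at and LIFR 225571_at. Probe sets of 1 gene share its RNA and are not separate replicates.

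**Figure D2:**
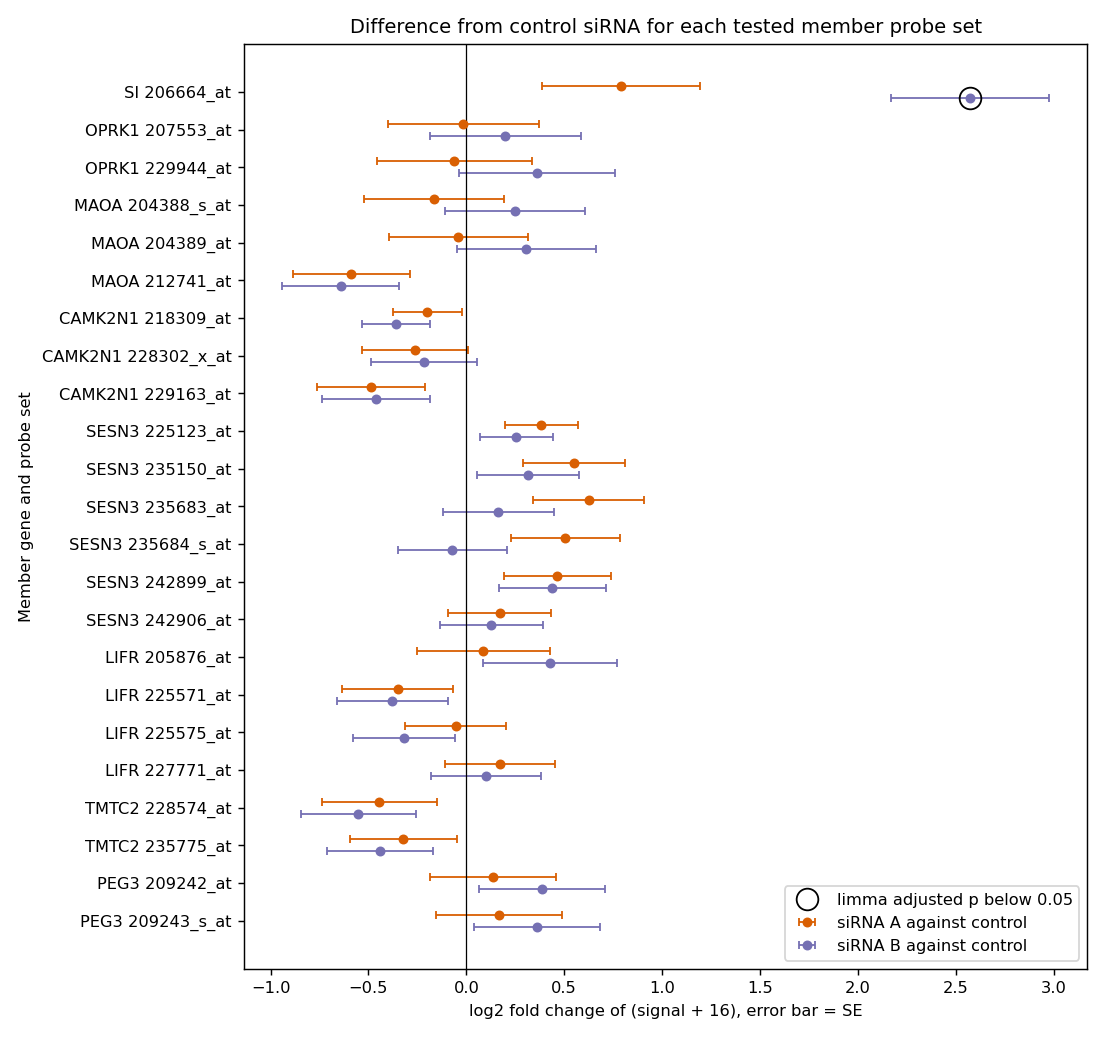
Log2 fold change of (signal + 16) on the x axis for each tested member probe set, for siRNA A and siRNA B each against control, with bars of 1 SE. SI under siRNA B, at 2.57, is the 1 point ringed for a limma adjusted p below 0.05, and the other probe sets lie between -0.64 and 0.62.

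Some of these orders changed with the scaling between arrays. After scaling to a common trimmed mean, 3 member probe sets were above both controls on all 4 SOX9 siRNA arrays, against 9.31% of all, and they were SI and SESN3 235150_at and 242899_at. On that scale 5 were below, against 9.68% of all, and they were all 3 of CAMK2N1 and both of TMTC2. As deposited, 10 of 23 member probe sets (43.5%) were highest on siRNA B replicate 2, near the 43.0% of all tested probe sets, and on the common scale 8 were (34.8%), against 24.8% of all. Replicate 2 exceeded replicate 1 in all 3 groups for 8 member probe sets, against 31.2% of all as deposited, and for 5 on the common scale, against 19.3% of all.

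Of the receptor genes, OPRK1 and LIFR did not pass in any comparison. OPRK1 encodes the kappa opioid receptor, which binds dynorphins. Its probe set 229944_at gave signals of 263 and 475 under siRNA A, 305 and 750 under siRNA B and 310 and 443 under control. Replicate 2 was higher in every group, the groups overlapped, and the log2 fold change for both siRNAs was 0.15 (SE 0.34, limma adjusted p = 0.961). The other, 207553_at, gave 36.2 and 84.6 under siRNA A, 44.6 and 101 under siRNA B and 40.6 and 79.0 under control, with a change of 0.09.

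LIFR encodes the leukemia inhibitory factor receptor, which pairs with gp130, the product of IL6ST, to signal through STAT3. LIFR 225571_at gave 453 and 366 under siRNA A, 409 and 389 under siRNA B and 604 and 453 under control. All 4 SOX9 siRNA arrays were below both controls, siRNA A replicate 1 by less than 1 signal unit, at a log2 fold change of -0.36 (SE 0.25, limma adjusted p = 0.829). The other tested LIFR probe sets gave -0.19 at 225575_at, 0.14 at 227771_at and 0.26 at 205876_at, and the dim 229185_at was not tested. Of 7 partners in the receptor's pathway, 5 were tested and 0 passed for both siRNAs. At an unadjusted limma p under 0.05, where 7.80% of all genes tested lay, there was 1. That was IL6ST, whose signals were 2373 and 2033 under siRNA A, 1341 and 1336 under siRNA B and 2466 and 2572 under control. Its log2 fold change under siRNA B was -0.90 (limma adjusted p = 0.171, and 0.00674 with the block).

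MAOA encodes monoamine oxidase A, the mitochondrial enzyme that oxidises serotonin, noradrenaline and dopamine. Its probe set 212741_at gave 560 and 379 under siRNA A, 439 and 448 under siRNA B and 826 and 593 under control. Every SOX9 siRNA array was below both controls, with a log2 fold change of -0.61 for both siRNAs (SE 0.26, limma adjusted p = 0.692), and the groups overlapped after scaling to a common trimmed mean. The other MAOA probe sets had small values of either sign. At 204388_s_at the signals were 257 and 253 under siRNA A, 217 and 541 under siRNA B and 308 and 269 under control. At 204389_at they were 190 and 168 under siRNA A, 148 and 359 under siRNA B and 214 and 158 under control. In both, siRNA B replicate 2 was the highest array and siRNA B replicate 1 the lowest, and the log2 fold changes for both siRNAs were 0.04 and 0.13. Under siRNA A they were -0.16 and -0.04, and without siRNA B replicate 2 those for both siRNAs were -0.27 and -0.17.

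CAMK2N1 encodes an endogenous inhibitor of the calcium/calmodulin-dependent kinase CaMKII. Its probe set 218309_at gave 5495 and 4894 under siRNA A, 4629 and 4649 under siRNA B and 5707 and 6214 under control. At 229163_at the signals were 340 and 382 under siRNA A, 338 and 397 under siRNA B and 493 and 530 under control. All 4 SOX9 siRNA arrays were below both controls in both, with log2 fold changes of -0.28 and -0.47 (SE 0.15 and 0.24, limma adjusted p = 0.765 and 0.742). At 228302_x_at, whose probes may match other sequences, the change was -0.24. Of its list, the kinase genes CAMK2D and CAMK2G and the related inhibitor gene CAMK2N2 were tested, and 0 passed for both siRNAs (0 at an unadjusted limma p under 0.05).

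SESN3 encodes sestrin 3, a stress-induced protein that acts on the mTORC1 pathway and is a FOXO target. Its probe set 225123_at gave 5893 and 5884 under siRNA A, 5344 and 5432 under siRNA B and 3938 and 5166 under control. At 242899_at the signals were 167 and 173 under siRNA A, 156 and 178 under siRNA B and 99.6 and 141 under control. At 235150_at they were 170 and 193 under siRNA A, 148 and 155 under siRNA B and 120 and 117 under control. All 4 SOX9 siRNA arrays exceeded both controls in these, and the log2 fold changes for both siRNAs were 0.32, 0.45 and 0.43 (lowest limma adjusted p = 0.746). The highest SESN3 change under siRNA A was 0.62 at 235683_at (SE 0.28, limma adjusted p = 0.9996), and siRNA B gave 0.16 there. For both siRNAs 235684_s_at gave 0.22, with -0.07 under siRNA B, and 242906_at gave 0.15. The dim 1553869_at was not tested. Of 7 pathway partners 0 passed for both siRNAs (1 at an unadjusted limma p under 0.05, where 7.80% of all genes tested lay). The log2 fold change was negative for 6 of 7 partners, and for 6858 of all 12431 genes tested. FOXO3, a transcription factor, had the lowest p, with -0.57 on the log2 scale (limma adjusted p = 0.683).

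TMTC2 encodes an endoplasmic reticulum membrane protein of the TMTC family, whose members are linked to O-mannosylation. TMTC2 228574_at gave 393 and 271 under siRNA A, 265 and 344 under siRNA B and 426 and 475 under control. Its other probe set, 235775_at, gave 216 and 176 under siRNA A, 183 and 174 under siRNA B and 233 and 264 under control. Both were below both controls on all 4 SOX9 siRNA arrays, as deposited and after scaling to a common trimmed mean. The log2 fold changes were -0.50 and -0.38 (SE 0.26 and 0.24, limma adjusted p = 0.752 and 0.797). Of the other TMTC and ST7 family genes 4 were tested and 0 passed for both siRNAs (0 at an unadjusted limma p under 0.05).

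PEG3 is a paternally expressed imprinted gene that encodes a zinc finger protein. PEG3 209242_at gave 110 and 154 under siRNA A, 110 and 223 under siRNA B and 107 and 127 under control. Both of its probe sets gave 0.26 for both siRNAs (limma adjusted p = 0.909 and 0.908) with overlapping groups. Of other imprinted genes PEG10 and MEST were tested and 0 passed for both siRNAs (0 at an unadjusted limma p under 0.05). PEG10, a retrotransposon-derived gene, had log2 fold changes of 1.00 under siRNA A and -0.59 under siRNA B, and neither passed (limma adjusted p = 0.9996 and 0.567, SE 0.32 each). With the block the siRNA A value passed (limma adjusted p = 0.00467).

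**Figure D3:**
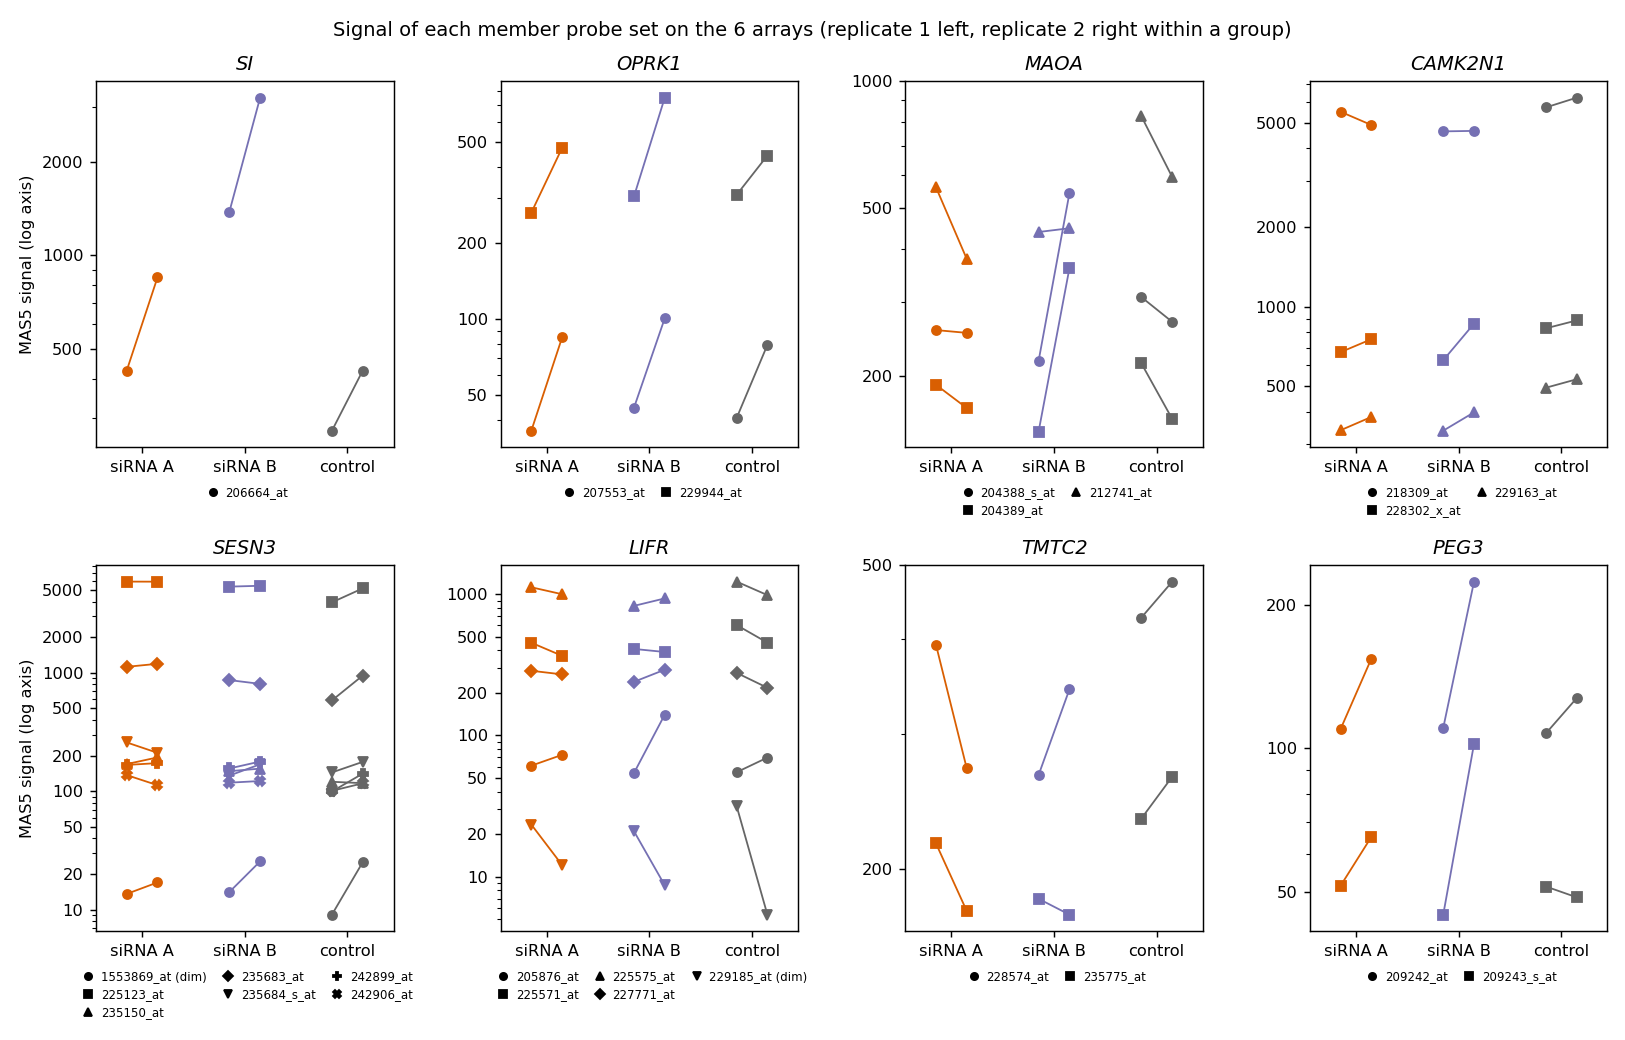
MAS5 signal on log axes for every member probe set on the 6 arrays, 1 panel per gene, with lines joining the replicates of a group. SI stands highest in the siRNA B arrays, at 1379 and 3218, and OPRK1 is higher in replicate 2 of each group.

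Among the other androgen-repressed genes on a list chosen with earlier results of these data known, 14 of 18 were tested and 0 passed for both siRNAs (5 at an unadjusted limma p under 0.05). Over all 12431 genes tested, 7.80% lay at that unadjusted p. With siRNA B 3 rose and 0 fell, against 0.0563% of all genes in each direction. The 3 are all UDP-glucuronosyltransferases that inactivate androgens. UGT2B15 gave 442 and 464 under siRNA A, 1289 and 1968 under siRNA B and 329 and 481 under control, a siRNA B log2 fold change of 1.96 (limma adjusted p = 0.0357). UGT2B17 gave 48.6 and 71.9 under siRNA A, 149 and 343 under siRNA B and 29.3 and 38.8 under control, a change of 2.29 (limma adjusted p = 0.0357). UGT2B28 averaged 90.6 ± 8.20 under siRNA A, 301 ± 62.5 under siRNA B and 59.1 ± 12.8 under control (SD, n = 2 each), a change of 2.07 (limma adjusted p = 0.0328). In each, both siRNA B arrays were above every other array. These paralogs are similar in sequence and the UGT2B15 and UGT2B28 probe sets may match more than 1 of them, so the 3 cannot be counted as separate evidence. The siRNA B call held in 9 of 19 alternatives for UGT2B15, 11 of 18 for UGT2B17 and 10 of 18 for UGT2B28.

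With siRNA A 1 gene of the list rose and 0 fell, against 0.0161% of all genes called higher. DDC encodes aromatic L-amino acid decarboxylase, an enzyme of dopamine and serotonin synthesis. It gave 1140 and 1695 under siRNA A, 207.5 and 162 under siRNA B and 207.6 and 331 under control, so siRNA B replicate 1 and control replicate 1 were nearly equal. Its log2 fold change was 2.34 under siRNA A (limma adjusted p = 0.0401) and -0.48 under siRNA B, and siRNA A against siRNA B differed by 2.82 (limma adjusted p = 0.00836). The siRNA A call for DDC held in 10 of 19 alternatives. Of the genes that did not pass, ACKR3, a chemokine scavenger receptor, had the most negative log2 fold change for both siRNAs, -1.37 (limma adjusted p = 0.646, and 3.79e-06 with the block). Its signals were 1090 and 244 under siRNA A, 778 and 195 under siRNA B and 968 and 1466 under control, so the low arrays were replicate 2 of both siRNAs. Without these arrays the value was -0.37, and the limma adjusted p with the block and a common trimmed mean was 0.203.

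Of 25 androgen-activated genes 21 were tested and 0 passed for both siRNAs (6 at an unadjusted limma p under 0.05, where 7.80% of all genes lay), with 9 positive and 12 negative log2 fold changes. The median was -0.12, against 0.25 for the other androgen-repressed genes and -0.04 over all 12431 genes tested. Both lists were chosen with earlier results of these data known. The repressed list holds the called genes UGT2B15, UGT2B17, UGT2B28 and DDC, so the medians describe the lists chosen and test nothing. SLC45A3, a prostate-enriched transporter, had the most positive value, 1.09 for both siRNAs (limma adjusted p = 0.600, and 0.000747 with the block). It was 0.54 without replicate 2 of both siRNAs, and the block with a common trimmed mean gave limma adjusted p = 0.124. TRPM8, a cold-sensing ion channel, had -0.54 for both siRNAs and -0.91 under siRNA B (limma adjusted p = 0.108, and 0.000422 with the block).

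**Figure D4:**
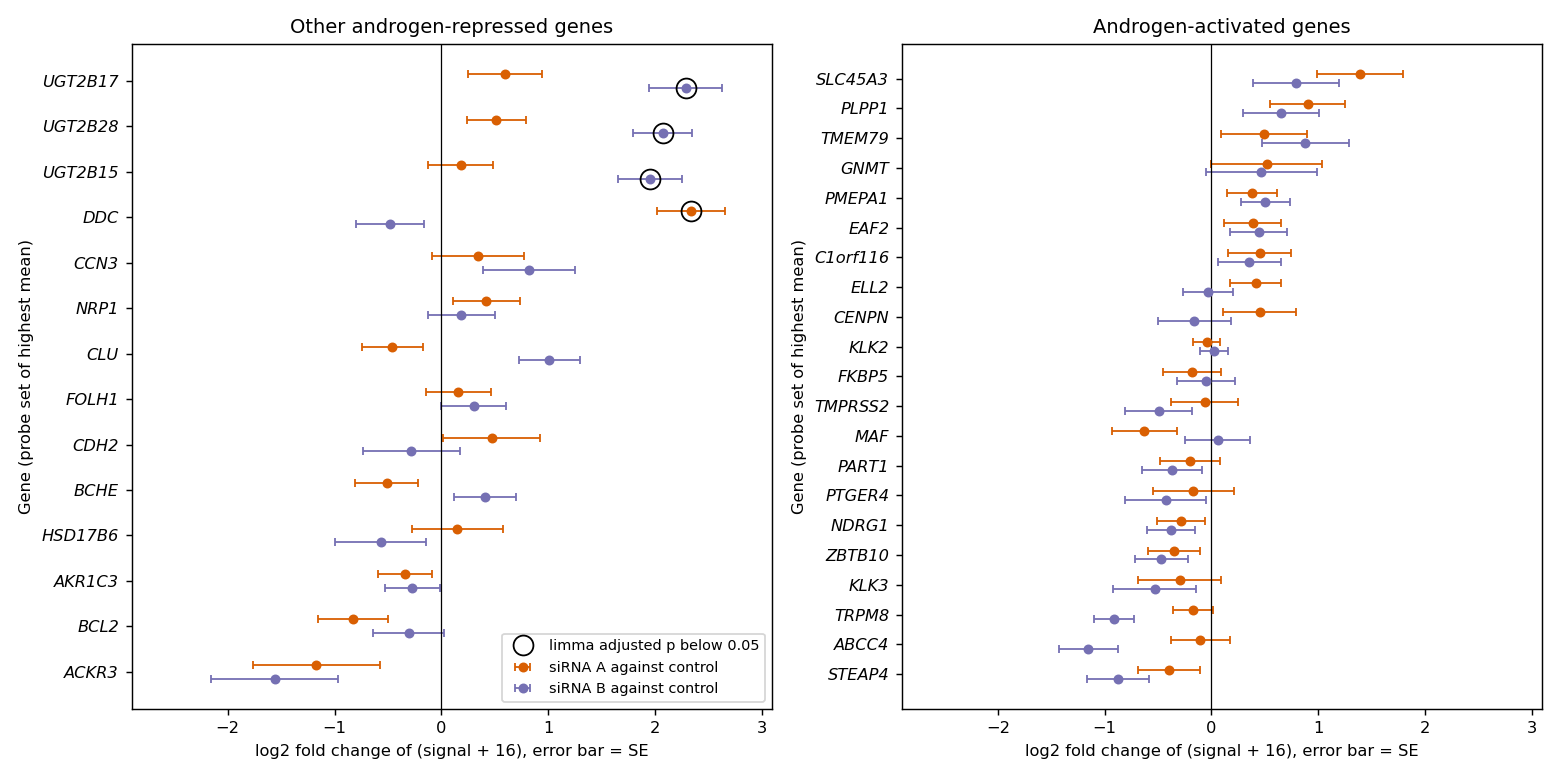
Log2 fold change of (signal + 16) on the x axis for siRNA A and siRNA B, each against control, with bars of 1 SE, for the other androgen-repressed genes (left) and the androgen-activated genes (right). Rings mark a limma adjusted p below 0.05, which UGT2B15, UGT2B17 and UGT2B28 reached under siRNA B and DDC under siRNA A, and no ringed point is in the right panel.

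The genes of the intestinal brush border that are usually expressed with SI were mostly dim. Of 10 with a probe set, 2 passed the filter at a signal of 21.96, the protease DPP4 and the transcription factor GATA4. The other 8 had signals of 1.10 to 28.7 on every array. The 2 tested genes did not pass for both siRNAs (0 at an unadjusted limma p under 0.05). The SI signal was above the filter level on every array, control included.

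**Figure D5:**
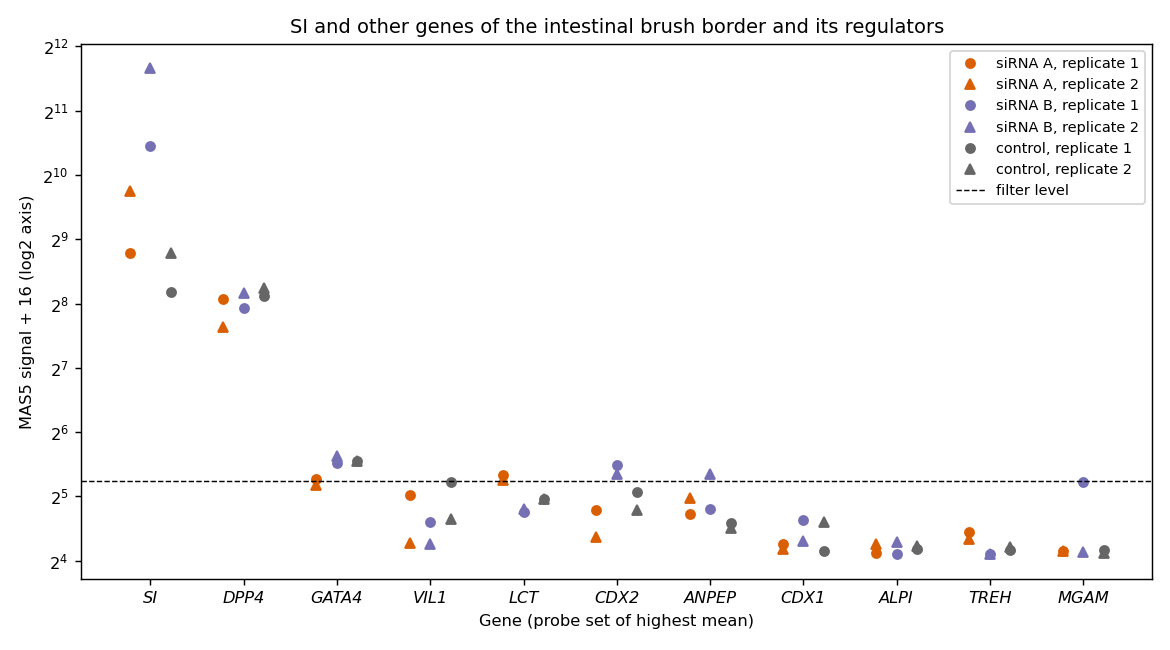
MAS5 signal plus 16 on a log2 axis for SI and the brush-border genes on the 6 arrays, with the filter level dashed. SI lies above the dashed line on every array, and 8 of the other 10 genes had means below it.

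The genes whose signals over the 6 arrays were most like SI were BCAM, RDH11, PER3, STK17B and SIRT4, with Pearson correlations of 0.998, 0.997, 0.995, 0.994 and 0.991 across log2 values. The 6 points are 3 groups of 2 arrays, and the arrays differ in brightness within groups, so these are a description. Their log2 fold changes under siRNA B ran from 0.40 for BCAM to 0.91 for SIRT4, and none passed against control in the reported fit. These genes were picked for following SI, which was highest under siRNA B, so a rise there was built into the choice. Their p-values for siRNA B and for both siRNAs therefore test nothing. With the block RDH11 passed for siRNA B (limma adjusted p = 0.000475) and for both siRNAs (limma adjusted p = 0.0170). STK17B passed with the block for siRNA B (limma adjusted p = 0.0498), and the others did not pass against control. Of these calls only that of RDH11 for siRNA B held with the block and a common trimmed mean.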

How the data were processed

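VCaP RNA was profiled on Affymetrix U133 Plus 2.0 arrays. Each deposited value is a linear intensity, the signal of 1 probe set made with MAS5, per the submitters' processing notes. Which MAS5 version was used, and to what target it scaled, is not given in the sources used here. Probe sets were named from the platform annotation, in which 41091 non-control probe sets had 1 symbol, 1801 several and 11721 none. Of the first kind, 41043 had an identifier among RefSeq's genes on GRCh38.p14, and 0 symbols changed.

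Signals were taken as log2(signal + 16), a scale that understates the change of dim genes, with the authors' scaling kept. The 62 control probe sets and those averaging under the overall median, 5.25 on the log2 scale, were left out, which left 27307. limma 3.58.1 in R 4.3.3 fitted 3 group means over 6 arrays (3 residual degrees of freedom) with an eBayes intensity trend, and a call was a Benjamini-Hochberg adjusted p below 0.05. The fit was tested on simulated data with independent noise on each array. That test had no pairing of arrays, so it does not cover the pairing described below. Where nothing says otherwise, p-values rest on the spread between these arrays, moderated toward the intensity trend over all probe sets (11.5 prior degrees of freedom). For a probe set whose replicates vary more than the trend, such as SI, p can be too small.

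Same-numbered arrays deviated together, with correlations of 0.59 between siRNA A and siRNA B and 0.15 between each siRNA and control. Each is above 0.1, so the numbers were treated as pairs. The labels do not say so.

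All member probe sets were named, and SOX9. From each list the called genes and up to 4 others by unadjusted p could be named, by the probe set of highest mean, together with the 5 genes most like SI. Members and lists were chosen with earlier results of these data known. Start-site windows from RefSeq were used for 7 of the 10 genes (13 windows). Windows of members on 1 chromosome were left out, so a gene without a window here can still have one in RefSeq. Alternatives were other offsets, scalings, filters, 1 probe set a gene, no trend, only the compared groups, the block, arrays left out and a threshold of 0.1.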

Additional observations from a re-analysis of the deposited data

Results flagged for a closer look

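For 3 of 14 other androgen-repressed genes (21.4%), the siRNA A and siRNA B arrays lay on opposite sides of both control arrays as deposited, against 820 of 27307 tested probe sets (3.0%). On the common trimmed mean scale this held for 1 of them, BCHE (7.14%, against 4.59% of all). The list counts genes and the shares over all count probe sets. The list was also chosen with earlier results of these data known, so its shares describe the list and test nothing. For DDC, siRNA A minus siRNA B was 2.82 on the log2 scale (limma adjusted p = 0.00836), while siRNA B replicate 1 (207.5) was under control replicate 1 (207.6) by a margin that turned round on the common scale, at 239 and 218. For CLU, a secreted chaperone, siRNA A gave 935 and 697, siRNA B 1838 and 2785 and control 1296 and 959, a difference of -1.47 between the siRNAs (limma adjusted p = 0.0967, 5.57e-06 with the block and 0.0280 with the block and a common trimmed mean). Its siRNA A replicate 1, at 936, was above control replicate 2, at 903, on the common scale. For BCHE, a cholinesterase, siRNA A gave 436 and 295, siRNA B 717 and 670 and control 453 and 592, a difference of -0.92 (limma adjusted p = 0.383, 0.0413 with the block and 0.0750 with the block and a common trimmed mean). Groups of 2 arrays are too small for a test of single outlying arrays.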

How the results depend on the processing

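Over the alternatives, 1554 of 1645 member values kept their sign and 91 changed it, and the 21 calls were all of SI. SI under siRNA B stayed between 1.97 and 3.18 on the log2 scale. Its limma adjusted p was 0.239 with quantile normalization, 0.194 with median centring, 0.244 with a common trimmed mean, 0.503 without the filter and 0.0924 without the trend; the cause was not tested. With siRNA B the number of called member probe sets was then 0 in each (5, 4, 4, 2 and 2 at an unadjusted limma p under 0.05), and 0 to 1 when an array was left out. For both siRNAs it was 1 with the replicate block, with the block and a common trimmed mean, and without replicate 2 of both SOX9 siRNAs. For siRNA A against siRNA B it was 1 in those 3 settings and with only the compared groups fitted. Leaving out an array gave 0 to 1 in both, with SI called without siRNA B replicate 1.

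The counts over all probe sets in limma depended on the setting more. For both siRNAs (1 as reported) they were 4 with an offset of 64, 7 with a stricter filter, 5 with 1 probe set a gene, 821 with the replicate block, 60 with the block and a common trimmed mean, 138 without replicate 2 of both SOX9 siRNAs, 5 at a threshold of 0.1 and 0 to 165 with an array left out. For siRNA A (2) they were 1 with an offset of 4 and without the trend, 356 with the replicate block, 5 with the block and a common trimmed mean, 54 without replicate 2 of both and 0 to 8 with an array left out. For siRNA B (17) they were 45 with the stricter filter, 0 without the trend (2715 at an unadjusted p under 0.05), 9 with only the compared groups, 1528 with the replicate block, 568 with the block and a common trimmed mean, 667 without replicate 2 of both, 38 at a threshold of 0.1 and 0 to 2080 with an array left out. For siRNA A against siRNA B (13) they were 4 with an offset of 4 and without the trend, 22 with the stricter filter, 41 with only the compared groups, 709 with the replicate block, 206 with the block and a common trimmed mean, 284 without replicate 2 of both, 40 at a threshold of 0.1 and 0 to 575 with an array left out. Quantile normalization, median centring, a common trimmed mean and no filter each gave 0 in all 4 comparisons; at an unadjusted p under 0.05 these settings held 1181 to 4067. The highest counts with an array left out came without siRNA B replicate 1, or without siRNA A replicate 1 for siRNA A.

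With 1 array left in a group, that array was assumed to vary like the others. The blocked fit left 2 residual degrees of freedom and took its spread from the trend. Signals near the filter level of 21.96 limit the dim probe sets, and 2 arrays a group limit all.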
